A study of Mus musculus with 6 samples.

Results

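The 55 genes described here act in mitosis or in the G2/M transition that leads into it. They were chosen by gene symbol from a list of mitotic cyclins, kinases, kinetochore, spindle, cytokinesis and condensin genes. No threshold on the measurements was used, but earlier results of these data were known when the list was chosen. All 55 symbols were present among the 17784 genes of the expression table, and all 55 were among the 12999 genes kept by the filter on low counts. The lowest expected count of any of them in any library was 43, so none was kept only through the group in which it was higher. The material was mouse corneal epithelium that had been detached from the cornea with EDTA, and its RNA was sequenced in bulk. The WT group held 3 samples from control mice, for which no genotype is named. The KO group held 3 samples of the genotype given in the labels as Prrx1-creERT;Ptch1, in which the tamoxifen-inducible recombinase CreERT deletes floxed Ptch1, the receptor that restrains Hedgehog signaling. Every sample of both groups came from mice labelled as 10 weeks old that had received 3 doses of tamoxifen, with the treatment labelled as lasting 2 months. In the study tamoxifen was given at about that age and corneas were examined later, so the labelled age may not be that at collection. According to the study, Prrx1-CreERT is active in keratocytes and in corneal endothelial cells, so the deletion was directed at cells beneath the epithelium and not at the epithelial cells that were measured. The labels do not say how many animals gave each sample, and the p-values measure only the spread between these samples.

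Entry into mitosis is driven by Cdk1 bound to cyclin A or cyclin B, after Cdc25 phosphatases remove inhibitory phosphates from the kinase. Condensin then compacts the chromosomes, kinesins and microtubule-associated proteins build the spindle, and kinetochores attach it to the centromeres under the watch of the spindle assembly checkpoint. Once every chromosome is attached, the anaphase-promoting complex marks securin and cyclin B for destruction, separase opens the cohesin rings, and the central spindle directs cytokinesis. In the corneal epithelium, dividing cells lie in the basal layer and in the limbus at the corneal rim, while the layers above have left the cell cycle. Messenger RNAs of this kind in whole epithelium therefore come mainly from basal cells in G2 or mitosis. Their transcription is known to peak late in the cycle through the MuvB complex with B-Myb and FoxM1, which bind promoters that carry a cell cycle genes homology region (CHR), often beside CCAAT boxes bound by NF-Y.

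The libraries were of similar depth, with 20296741 to 20625813 expected counts each. Krt12, the corneal epithelial keratin, stood between 37107 and 49487 in all 6 in units of TPM, which are scaled for transcript length and library size. On the first principal component of all genes, KO 1 lay at 51.7, apart from KO 2 (18.3), KO 3 (19.1) and the WT libraries (-33.7 to -26.5). Most counts of genes are also given without KO 1, but values of single genes mostly rest on all 6 libraries. Changes of single genes are given as log2 fold changes of KO over WT, with their standard error (SE), from counts normalized for library size. Ptch1 itself, measured in the epithelium, had 517, 659 and 682 normalized counts in WT 1, 2 and 3 and 389.7, 445 and 471 in KO 1, 2 and 3, with a log2 fold change of -0.51 (SE 0.13, adjusted p = 0.0401, edgeR).

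Those promoter elements were not a criterion for the list, and most of its promoters carried them. RefSeq promoters of build GRCm38.p6, from 250 bases before to 50 after each gene start, were matched by symbol for 45 of the 55 genes, and 3 of these genes had 2 promoters, which gave 48 promoters. The CCAAT box was searched as CCAAT and the CHR as TTTGAA or TTCGAA, each on either strand, and matches that overlap were each counted. A CHR was found in 79.2% of the 48 promoters and in 19.2% of all 32851 promoters in the reference. At least 1 CCAAT box was found in 77.1% against 37.4%, at least 2 in 24 of the 48 promoters against 11.7%, and both elements in 70.8% against 7.52%. The 37 promoters of DNA replication and S phase genes resembled the mitotic promoters less, with a CHR in 16.2%, a CCAAT box in 59.5% and both in 13.5%. Among the 13 genes that passed the test described next and had a promoter in the reference, the CHR was found in 84.6%, against 77.1% of the 35 promoters of the other genes. The 81 CCAAT matches had a median position of -68 from the gene start, and 64.2% of them lay between -100 and -1. The 50 CHR matches had a median position of -16. These matches describe letters in a window and are not measured binding sites.

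The upstream sequences of 5 genes are shown because these genes passed the test of KO against WT and held both motifs in the part of the window that lies outside the gene's outermost RefSeq transcript. Ncapd2 and Ncapg also passed and held both motifs before the gene start of the reference table, but not within that outer part, and are not shown. They are written 5′ to 3′ along the gene's strand, starting 250 bases before the gene start, with matches to either motif in capitals. The stretches run to base -1, except that those of Mki67 and Top2a end where the outermost RefSeq transcript of the gene begins. Cdk1 lies on the minus strand (chr10:69352913-69353162), as do Mki67 (chr7:135716451-135716629) and Top2a (chr11:99024200-99024439), and Smc2 (chr4:52438971-52439220) and Ube2c (chr2:164769679-164769928) lie on the plus strand.
Cdk1: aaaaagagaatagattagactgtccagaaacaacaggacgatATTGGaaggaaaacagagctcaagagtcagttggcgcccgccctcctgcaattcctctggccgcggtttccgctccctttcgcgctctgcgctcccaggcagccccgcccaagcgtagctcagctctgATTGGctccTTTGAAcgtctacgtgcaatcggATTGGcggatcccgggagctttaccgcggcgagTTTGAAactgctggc
Smc2: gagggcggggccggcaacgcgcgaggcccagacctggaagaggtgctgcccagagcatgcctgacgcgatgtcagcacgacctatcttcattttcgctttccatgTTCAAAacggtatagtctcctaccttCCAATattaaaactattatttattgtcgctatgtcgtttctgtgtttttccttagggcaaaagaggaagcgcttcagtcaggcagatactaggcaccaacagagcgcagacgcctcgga
Mki67: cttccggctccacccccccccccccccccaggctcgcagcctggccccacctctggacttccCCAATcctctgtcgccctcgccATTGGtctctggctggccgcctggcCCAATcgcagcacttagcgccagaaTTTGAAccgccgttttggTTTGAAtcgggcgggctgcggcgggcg
Top2a: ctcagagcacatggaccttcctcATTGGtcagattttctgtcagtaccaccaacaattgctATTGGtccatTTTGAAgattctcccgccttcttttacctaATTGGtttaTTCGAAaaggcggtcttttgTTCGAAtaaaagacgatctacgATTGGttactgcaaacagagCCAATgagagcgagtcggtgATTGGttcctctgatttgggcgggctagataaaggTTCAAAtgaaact
Ube2c: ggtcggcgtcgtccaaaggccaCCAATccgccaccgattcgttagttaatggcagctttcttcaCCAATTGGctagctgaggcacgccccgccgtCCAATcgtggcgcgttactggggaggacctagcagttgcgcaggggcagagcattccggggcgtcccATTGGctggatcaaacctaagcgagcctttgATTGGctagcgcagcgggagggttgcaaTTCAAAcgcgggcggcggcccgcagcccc
The Cdk1 stretch held 3 CCAAT boxes and 2 CHR matches, the nearer CHR with its first base at -15. Top2a held 6 CCAAT boxes and 4 CHR matches. Ube2c held 6 CCAAT boxes, of which a pair at -186 and -183 share letters as the 2 strands of CCAATTGG, and its CHR lay at -29. Mki67 held 3 CCAAT boxes and 2 CHR matches, and Smc2 held 1 of each.

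**Figure D1:**
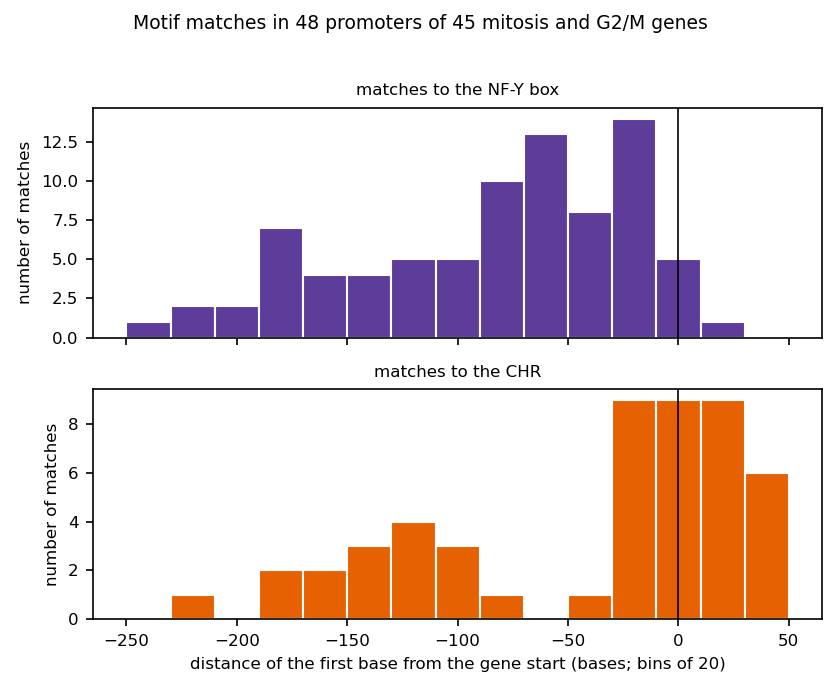
Number of matches to the CCAAT box bound by NF-Y (top) and to the CHR (bottom) by distance of the first base from the gene start, in bins of 20 bases, over 48 promoters of 45 mitosis and G2/M genes. The 81 CCAAT matches have their median at -68 and the 50 CHR matches at -16.

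The mitotic genes were higher as a set in KO epithelium, by well under 2-fold. Their summed level in TPM was 957, 1183 and 1553 in WT 1, 2 and 3, and 1700, 1565 and 1826 in KO 1, 2 and 3. The mean was 1231 ± 301 in WT and 1697 ± 130 in KO (SD, n = 3 each), a ratio of 1.38. The sums of the 2 groups did not overlap, but the lowest KO sum, in KO 2, exceeded the highest WT sum, in WT 3, by little. In bulk samples, more dividing cells and more RNA per dividing cell cannot be told apart.

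Gene by gene, the log2 fold change of KO over WT was above 0 for 55 of the 55 genes, against 48.5% of all genes tested. Its median was 0.56, compared with -0.0099 over all 12999 genes. With edgeR's two-sided quasi-likelihood test, 17 of the 55 genes, or 30.9%, rose at a p of at most 0.05 after Benjamini-Hochberg adjustment, the limit used throughout for having passed the test. Over all genes tested, 7.61% passed in that direction. The rises of the 17 genes ran from 1.37-fold for Ube2c to 1.80-fold for Smc2. None of the 55 genes passed in the lower direction, where 6.41% of all genes did, and at an unadjusted p under 0.05 or with DESeq2 the count of lower genes was also 0. No gene of the list combined the adjusted p with a 2-fold change, which 2.34% of all genes did in the higher and 0.892% in the lower direction, and the count was 0 with DESeq2 too.

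A further 25 genes had an unadjusted p under 0.05 without passing after adjustment, so that 42 of 55 were below that level, against 17% of all genes in the higher direction. The threshold cut through a close run of values. Just inside it were Knl1, Ncapg and Ube2c, with adjusted p = 0.0407, 0.0441 and 0.0477 from edgeR's test. Just outside lay Ndc80, Ccnb2, Bub1b, Ccnb1 and Prc1, between 0.0564 and 0.0582. For 39 of the genes every KO library had a higher normalized count than every WT library, against 19.7% of all genes, and for the other 16 the groups overlapped. In the reverse order, with every KO library below every WT library, there were 0 of the 55 and 20.3% of all genes. On the TPM scale, every KO library was above every WT library for 28 genes, against 16.2% of all genes, and these included all 17 that passed. For a single gene, the smallest p that an exact permutation of 3 against 3 libraries allows is 0.1, and adjusted p-values of the edgeR model over all genes are therefore given.

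The count of 17 rested on all 6 libraries. With edgeR it was 3 without WT 1, 0 without WT 2 (27 at an unadjusted p under 0.05) and 38 without WT 3, and it was 6, 7 and 6 without KO 1, KO 2 and KO 3. The share of all genes that passed in either direction moved too, from 14% to 5.21%, 0.704% and 5.56% without WT 1, WT 2 and WT 3 and to 8.89%, 7.92% and 10.1% without KO 1, KO 2 and KO 3. With DESeq2, 35 of the 55 genes passed, against 19.4% of all genes in either direction. The median log2 fold change ranged from 0.38 without WT 1 to 0.80 without WT 3. Without WT 3, 7 genes also reached a 2-fold change. WT 3 was the highest WT library for 55 of the 55 genes, so leaving it out lowers the WT mean of each. Of the role groups described below, 3 condensin genes passed without KO 1, and 1 gene each of the cyclin, chromosomal passenger and proliferation marker groups. In the checkpoint, kinetochore, kinesin, spindle, cytokinesis and anaphase groups, 0 genes passed without KO 1. By RefSeq extents, 12 of the 55 genes overlap another gene, among them Ccna2, Kif4, Ncapg and Ncaph of the 17, and the counting is not stated to use strand, so reads of such pairs may be mixed.

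**Figure D2:**
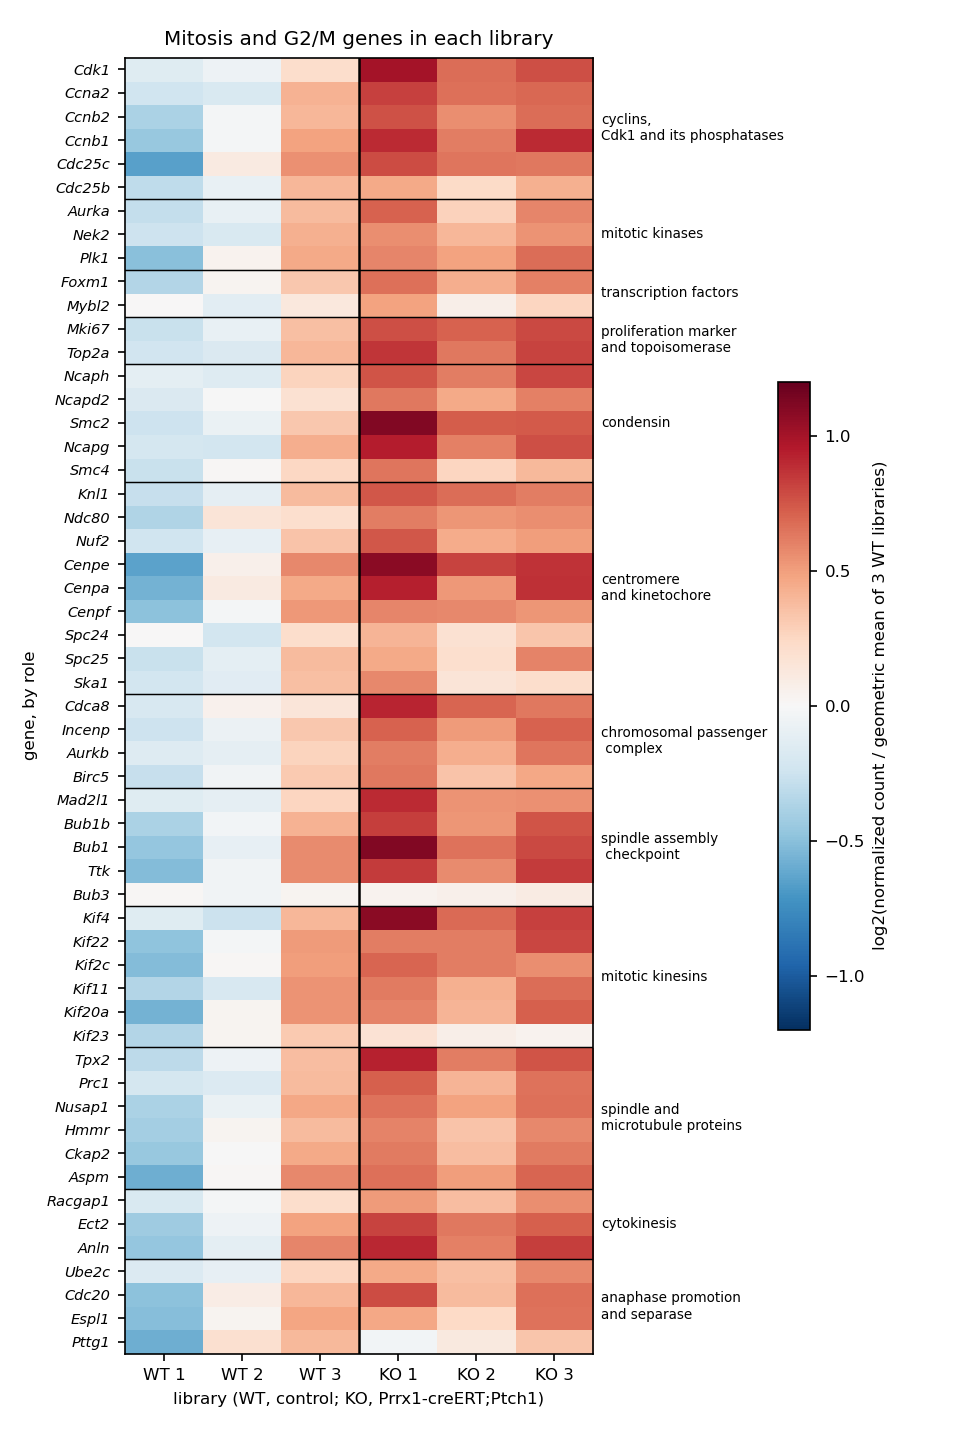
Log2 ratio of each gene's normalized count to its geometric mean over the 3 WT libraries, by library (columns) and gene (rows, grouped by role). WT 1 is the lowest WT library for 49 of 55 genes and WT 3 the highest for 55 of 55, and most KO cells are darker than those of WT 3.

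The WT libraries differed among themselves in these genes more than in the rest of the transcriptome. WT 3 had the highest count of the 3 WT libraries for 55 of the 55 genes, against 33.5% of all genes. WT 1 had the lowest for 49 of 55, against 34.7%. The median log2 difference between WT 3 and WT 1 over the list was 0.66, and it was close to 0 over all genes. Set against this, the KO mean lay 0.96 above WT 1 at the median but only 0.21 above WT 3. The KO libraries were closer together, with a median standard deviation of 0.139 on the log2 scale against 0.349 in WT, where the medians over all genes were 0.142 and 0.114. The WT spread was the larger for 54 of the 55 genes, compared with 40.1% of all genes. Within KO, KO 1 had the highest count for 39 genes and KO 3 for 16, and KO 2 had the lowest for 46. Replication genes showed another order. For the 40 DNA replication and S phase genes, WT 3 was the lowest WT library in 33, and their median standard deviations were 0.174 in WT and 0.162 in KO.

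**Figure D3:**
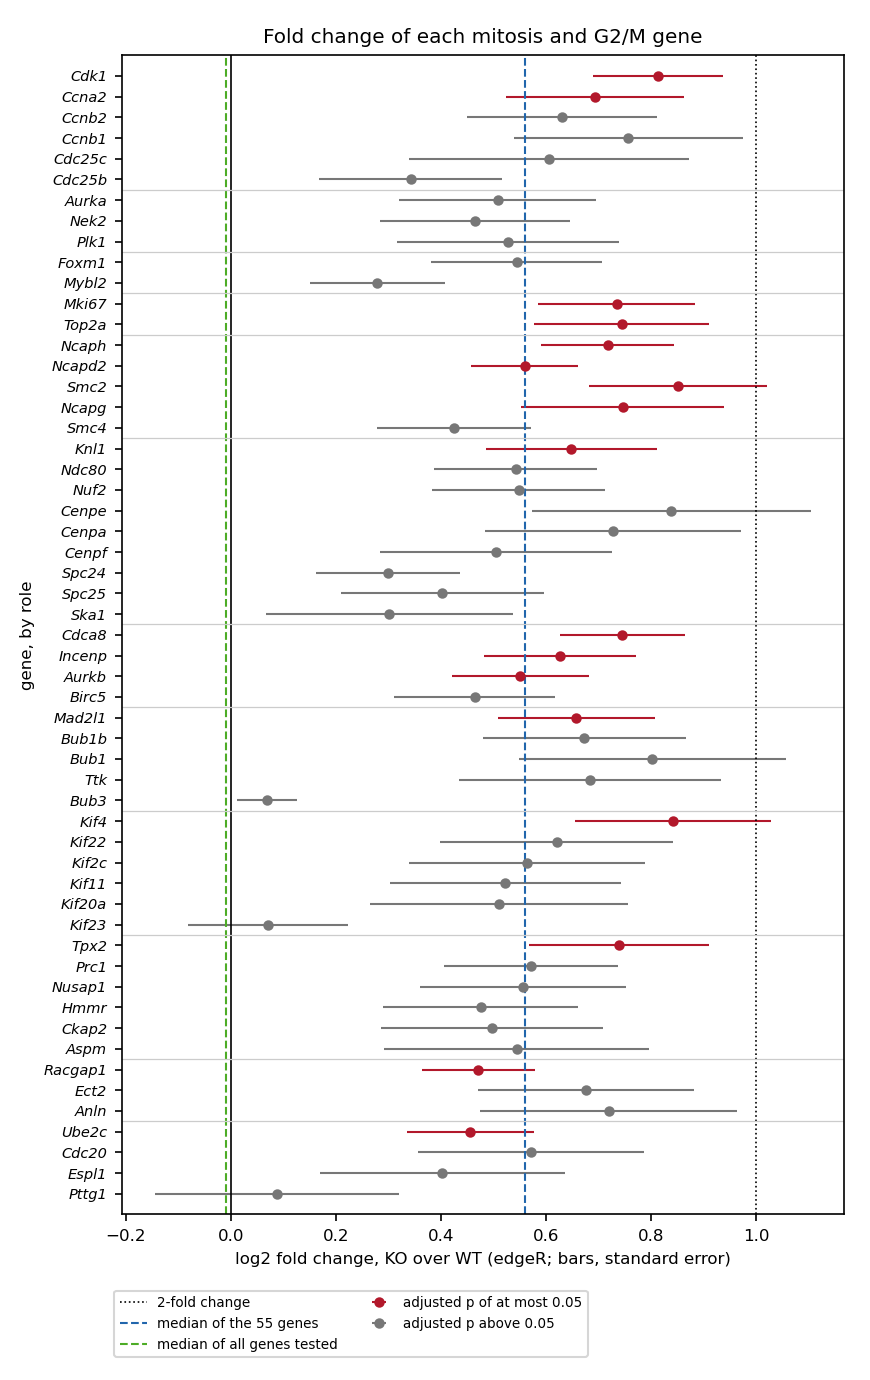
Log2 fold change of KO over WT for each of the 55 genes, grouped by role, with the standard error from edgeR as bars. The 17 genes with an adjusted p of at most 0.05 are in red and lie between 0.46 and 0.85, all below the line of a 2-fold change, and the dashed lines give the median of the 55 genes (0.56) and of all genes tested (-0.0099).

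Among the cyclins, Cdk1 and the Cdc25 phosphatases, 2 of 6 genes rose. The share of all genes that rose, to be set beside this and the groups below, was 7.61%. Cdk1 (gene 12534), the kinase that drives entry into mitosis, had 391, 414 and 501 normalized counts in WT 1, 2 and 3 and 863, 691 and 739.7 in KO 1, 2 and 3. Its KO counts were clear of its WT counts, and its log2 fold change of 0.81 (SE 0.12, adjusted p = 0.0119, edgeR) carried the smallest p-value of the 55 genes. Leaving out single libraries gave 0.72 to 0.92, and only without WT 2 did its adjusted p exceed the threshold (0.0692 from edgeR's test). Ccna2, cyclin A2, which partners Cdk1 and Cdk2, rose by 0.69 (SE 0.17, adjusted p = 0.0383, edgeR). Ccnb2 (gene 12442), cyclin B2, had the highest level of the group by TPM, with a mean of 39.6 TPM over the 6 libraries. It had 333, 427 and 572 normalized counts in WT 1, 2 and 3 and 736, 637 and 689 in KO 1, 2 and 3. These counts did not overlap, but WT 3 lay closer to KO than to WT 1, and the log2 fold change of 0.63 (SE 0.18, adjusted p = 0.0565, edgeR) did not pass. Ccnb1 (gene 268697), the main mitotic cyclin, had 374, 503 and 717 normalized counts in WT 1, 2 and 3 and 955, 786 and 953 in KO 1, 2 and 3. The WT counts were widely spread, with a mean of 531 ± 174 (SD, n = 3), and the log2 fold change was 0.76 (SE 0.22, adjusted p = 0.0567, edgeR). Cdc25c had a log2 fold change of 0.61 and Cdc25b one of 0.34, with adjusted p = 0.157 and 0.211 from edgeR's test.

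None of the 3 mitotic kinases passed with edgeR or with DESeq2, although each had an unadjusted p under 0.05. Plk1 (gene 18817), polo-like kinase 1, which acts from mitotic entry to cytokinesis, had 389, 563 and 753 normalized counts in WT 1, 2 and 3 and 822, 765 and 873 in KO 1, 2 and 3. Its WT counts differed widely, WT 3 was closest to KO, and its log2 fold change was 0.53 (SE 0.21, adjusted p = 0.128, edgeR). Aurka, which matures the centrosomes, had a log2 fold change of 0.51, and Nek2, which separates them, one of 0.46. For both of these kinases the counts of the groups overlapped.

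The list held 2 transcription factors, Foxm1 and Mybl2. Foxm1 (gene 14235), an activator of G2/M promoters, had 468, 612 and 750.3 normalized counts in WT 1, 2 and 3 and 948, 812 and 908 in KO 1, 2 and 3. The KO counts lay above all WT counts, with a log2 fold change of 0.54 (SE 0.16, adjusted p = 0.0624, edgeR). Mybl2 (gene 17865), which encodes B-Myb, had 270.3, 248 and 294 normalized counts in WT 1, 2 and 3 and 378, 283 and 324 in KO 1, 2 and 3. Here KO 2 lay among the WT libraries, and the log2 fold change was 0.28 (SE 0.13, adjusted p = 0.175, edgeR). Neither gene passed with edgeR, while DESeq2 passed 1 of the 2.

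The proliferation marker gene Mki67 and the topoisomerase gene Top2a both rose. Mki67 (gene 17345), the Ki67 antigen that coats mitotic chromosomes, had 2457, 2782 and 3797 normalized counts in WT 1, 2 and 3 and 5075, 4838 and 5124 in KO 1, 2 and 3. Its KO libraries lay within a narrow range, with a mean of 5012 ± 153 (SD, n = 3), and all were above WT 3, giving a log2 fold change of 0.73 (SE 0.15, adjusted p = 0.0241, edgeR). Top2a (gene 21973), the topoisomerase that untangles sister chromatids, had 1542, 1610.4 and 2392 normalized counts in WT 1, 2 and 3 and 3289, 2815 and 3178 in KO 1, 2 and 3. WT 1 and WT 2 were close to each other and WT 3 lay between them and KO, and the log2 fold change was 0.74 (SE 0.17, adjusted p = 0.0303, edgeR). With each library left out in turn, Mki67 passed in 2 of the 6 fits and Top2a in 1.

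Condensin, the complex that compacts mitotic chromosomes, held 4 genes of 5 that rose with edgeR, and 5 of 5 passed with DESeq2. Smc2 (gene 14211), the core ATPase subunit shared by condensin I and condensin II, had 337, 379 and 502 normalized counts in WT 1, 2 and 3 and 866, 662 and 668 in KO 1, 2 and 3. Its log2 fold change of 0.85 (SE 0.17, adjusted p = 0.0231, edgeR) was the highest of the 55 genes. Ncapd2 (gene 68298), a condensin I subunit and the most abundant gene of the group at a mean of 33.9 TPM, had 1022, 1148 and 1308 normalized counts in WT 1, 2 and 3 and 1788, 1581 and 1755 in KO 1, 2 and 3. The change was smaller but tighter, at 0.56 (SE 0.10, adjusted p = 0.0182, edgeR). Ncaph (gene 215387), the kleisin subunit of condensin I, had 302, 294 and 393 normalized counts in WT 1, 2 and 3 and 553, 502 and 571 in KO 1, 2 and 3. WT 1 and WT 2 nearly coincided, every KO count was above WT 3, and the log2 fold change was 0.72 (SE 0.13, adjusted p = 0.0170, edgeR). Ncapg, the remaining condensin I subunit, rose by 0.75 (SE 0.19, adjusted p = 0.0441, edgeR). Smc4, the partner ATPase of Smc2, had a log2 fold change of 0.43 (SE 0.15, adjusted p = 0.0892, edgeR) and did not pass.

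**Figure D4:**
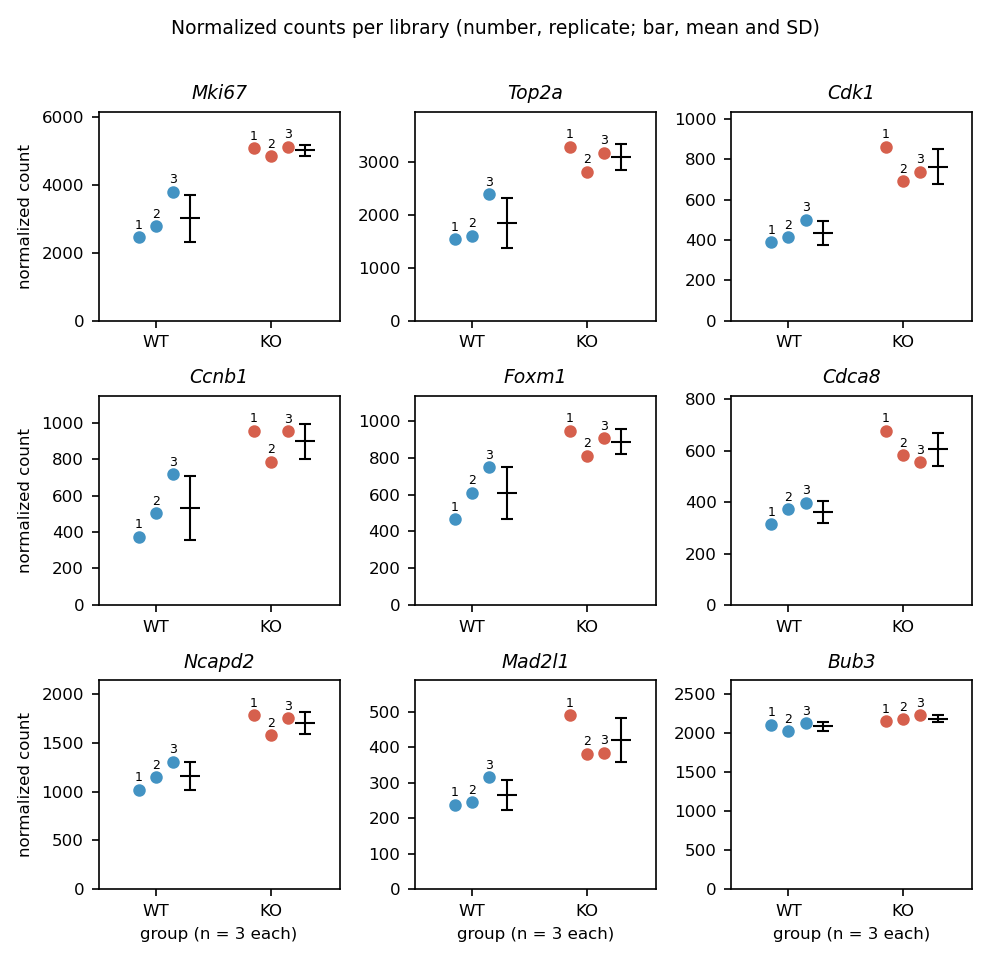
Normalized counts of 9 genes in each library (points, with the replicate number beside them), with the mean and SD of each group of 3 as bars. Every KO point lies above every WT point in all 9 panels, by the least for Bub3, whose WT mean is 2083 and KO mean 2184.

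In the chromosomal passenger complex, which corrects faulty attachments at the centromere, 3 of 4 genes rose. Cdca8 (gene 52276), which encodes borealin, had 313, 372 and 397 normalized counts in WT 1, 2 and 3 and 677, 582 and 555 in KO 1, 2 and 3. The gap between the groups exceeded the range within either, with a log2 fold change of 0.75 (SE 0.12, adjusted p = 0.0133, edgeR). As with Cdk1, the call was lost only without WT 2 among the 6 single-library exclusions (adjusted p = 0.0681 from edgeR's test). Incenp, the scaffold of the complex, rose by 0.63 (SE 0.14, adjusted p = 0.0331, edgeR), and Aurkb, its kinase, rose by 0.55 (SE 0.13, adjusted p = 0.0355, edgeR). Birc5 (gene 11799), survivin, the most abundant of the 4 at a mean of 46.4 TPM, had 361, 425 and 542 normalized counts in WT 1, 2 and 3 and 676, 553 and 601 in KO 1, 2 and 3. KO 2 lay just above WT 3, and the log2 fold change of 0.46 (SE 0.15, adjusted p = 0.0807, edgeR) did not pass.

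Of the 5 spindle assembly checkpoint genes, 1 rose (20%, against 7.61% of all genes). Mad2l1 (gene 56150), which encodes the Mad2 protein that holds back the anaphase-promoting complex, had 238, 245 and 315 normalized counts in WT 1, 2 and 3 and 492, 383 and 385 in KO 1, 2 and 3. Its log2 fold change was 0.66 (SE 0.15, adjusted p = 0.0316, edgeR). Bub1, Bub1b and Ttk, which encode kinases or a pseudokinase of the checkpoint, had log2 fold changes of 0.80, 0.67 and 0.68 with adjusted p = 0.0726, 0.0565 and 0.103 from edgeR's test. DESeq2 passed 4 of the 5. Bub3 (gene 12237) stood apart from the others of its group. It encodes a checkpoint adaptor that also takes part in transcription and splicing outside mitosis, and it was the second most abundant gene of the list at a mean of 110 TPM. Bub3 had 2105, 2017 and 2126 normalized counts in WT 1, 2 and 3 and 2147, 2174 and 2230.0 in KO 1, 2 and 3. The KO counts lay above the WT counts by a small margin, on the TPM scale the groups overlapped, and the log2 fold change was 0.07 (SE 0.057, adjusted p = 0.435, edgeR).

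Among 9 centromere and kinetochore genes, 1 rose with edgeR and 5 with DESeq2. The edgeR share of 11.1% was near the 7.61% of all genes. Knl1, the kinetochore scaffold that recruits the Bub proteins, rose by 0.65 (SE 0.16, adjusted p = 0.0407, edgeR). Cenpa (gene 12615), the histone H3 variant that marks centromeres and the most abundant of the group at a mean of 31.7 TPM, had 148, 237 and 302 normalized counts in WT 1, 2 and 3 and 419.7, 314 and 404 in KO 1, 2 and 3. KO 2 lay close to WT 3, and the log2 fold change of 0.73 (SE 0.24, adjusted p = 0.0832, edgeR) did not pass. Cenpe, a kinesin of the kinetochore, had one of the highest log2 fold changes of the list, 0.84, with a standard error of 0.27. For the Ndc80 complex, which binds microtubules, the log2 fold changes were 0.54 for Ndc80, 0.55 for Nuf2, 0.40 for Spc25 and 0.30 for Spc24, and none of the 4 passed with edgeR. The groups overlapped for Spc24, Spc25 and Ska1, and the last of these had the lowest level of the 55 genes, at a mean of 2.31 TPM.

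Of 6 mitotic kinesins, 1 rose (16.7%, against 7.61% of all genes). Kif4 (gene 16571), a chromokinesin that works with condensin and at the central spindle, had 247, 229 and 360.1 normalized counts in WT 1, 2 and 3 and 579.9, 437 and 483 in KO 1, 2 and 3. Its log2 fold change was 0.84 (SE 0.19, adjusted p = 0.0296, edgeR). Kif22, Kif2c, Kif11 and Kif20a, which move chromosomes, depolymerize microtubules, separate the spindle poles and serve cytokinesis, had log2 fold changes from 0.51 to 0.62 and did not pass. Kif23 (gene 71819), a motor of the centralspindlin complex, was the exception. It had 1058, 1382 and 1673 normalized counts in WT 1, 2 and 3 and 1518, 1417 and 1387 in KO 1, 2 and 3. Its 3 KO counts lay inside the WT range, and its log2 fold change was 0.07 (SE 0.15, adjusted p = 0.779, edgeR), although its level was the highest of the kinesins at a mean of 44.6 TPM.

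Of 6 spindle and microtubule proteins, 1 rose (16.7%, against 7.61% of all genes). This was Tpx2, which activates Aurora A on the spindle, at 0.74 (SE 0.17, adjusted p = 0.0336, edgeR). Prc1 (gene 233406), which bundles the microtubules of the central spindle, was the most abundant of the group at a mean of 39.8 TPM. It had 761, 783 and 1141 normalized counts in WT 1, 2 and 3 and 1442, 1166 and 1379 in KO 1, 2 and 3. The lowest KO count barely exceeded WT 3, and the log2 fold change was 0.57 (SE 0.17, adjusted p = 0.0582, edgeR). Nusap1, Hmmr, Ckap2 and Aspm, which bind microtubules or spindle poles, had log2 fold changes from 0.48 to 0.56, and Hmmr, Ckap2 and Aspm overlapped between the groups.

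In cytokinesis, Racgap1 (gene 26934), the partner of Kif23 in centralspindlin, had 1418, 1587 and 1864 normalized counts in WT 1, 2 and 3 and 2301, 2081 and 2366 in KO 1, 2 and 3. It rose by 0.47 (SE 0.11, adjusted p = 0.0315, edgeR) on the log2 scale, while Kif23 did not pass. The difference between the partners was not tested. Ect2, the exchange factor that activates RhoA at the cell equator, and Anln, which links the contractile ring to the membrane, had log2 fold changes of 0.68 and 0.72 with adjusted p = 0.0657 and 0.0866 from edgeR's test. DESeq2 passed 3 of these 3 genes.

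At the exit from mitosis, Ube2c (gene 68612), the ubiquitin-conjugating enzyme of the anaphase-promoting complex, had the highest level of the 55 genes at a mean of 117 TPM. It had 738, 772 and 984 normalized counts in WT 1, 2 and 3 and 1133, 1056 and 1232 in KO 1, 2 and 3. The rise of 0.46 (SE 0.12, adjusted p = 0.0477, edgeR) was the smallest of the 17 that passed. Cdc20, the activator of the complex, had a log2 fold change of 0.57 and Espl1, which encodes separase, one of 0.40, with adjusted p = 0.110 and 0.264 from edgeR's test. Pttg1, which encodes securin, had 333, 571 and 656 normalized counts in WT 1, 2 and 3 and 487, 541 and 630.2 in KO 1, 2 and 3. WT 1 alone lay below the KO libraries, WT 3 was the highest of the 6, and the log2 fold change was 0.09 (SE 0.23, adjusted p = 0.826, edgeR).

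The genes outside the list were read from other lists of the same pathway, also chosen with earlier results of these data known. Beside the counts of these and all later lists stand the shares over all genes, of which 7.61% rose and 6.41% fell with edgeR. Of 77 further mitotic genes, 19 rose, 0 fell (1 was lower at an unadjusted p under 0.05, and 0 with DESeq2) and 73 had a log2 fold change above 0, with a median of 0.46. With DESeq2, 35 rose. With edgeR the count was 5, 0 and 27 without WT 1, 2 and 3, and 7, 10 and 9 without KO 1, 2 and 3. The 8 with the smallest p-values were Diaph3, Ncapg2, Kntc1, Pmf1, Haus6, Trip13, Tacc3 and Haus4, with log2 fold changes from 0.43 (Haus4) to 0.85 (Diaph3). Ncapg2 encodes a subunit of condensin II, and it rose by 0.77 (SE 0.10, adjusted p = 0.00947, edgeR). Kntc1 and Trip13 serve the spindle assembly checkpoint, and Haus4 and Haus6 belong to the augmin complex that branches spindle microtubules. Of 12 cohesin genes, which hold sister chromatids together, 2 rose, Esco2 at 0.64 (SE 0.12, adjusted p = 0.0211, edgeR) and Stag1 at 0.31 (SE 0.065, adjusted p = 0.0258, edgeR).

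A list of 16 genes held the subunits of the anaphase-promoting complex, its co-activator Fzr1 and Ube2s, a ubiquitin-conjugating enzyme that works with it. Of these 16, 0 rose with edgeR (1 at an unadjusted p under 0.05, Ube2s, and 1 with DESeq2) and 1 fell, Anapc13 at -0.46 (SE 0.086, adjusted p = 0.0195, edgeR), and the median log2 fold change was -0.020. No gene of the 16 fell without WT 1, WT 2 or WT 3. Of 23 genes for MuvB, DREAM and E2F proteins, which regulate cell cycle promoters, 4 rose and 1 fell. E2f8 rose by 0.78 (SE 0.12, adjusted p = 0.0119, edgeR), Rbl1 by 0.37, E2f3 by 0.52 and Lin54 by 0.49. Myb fell by 0.45 on the log2 scale (adjusted p = 0.0311 from edgeR's test), and the median of this list was 0.017. With edgeR the rising genes of this list numbered 1, 0 and 3 without WT 1, 2 and 3, and 2, 1 and 3 without KO 1, 2 and 3, and no gene of it fell in any of these 6 fits.

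The 40 DNA replication and S phase genes included 17 that rose, the smallest p-values being those of Rrm2, Pola2, Pole, Chaf1a, Lig1, Pola1, Rrm1 and Mcm4. Their median log2 fold change was 0.47, and 40 of 40 were above 0. The count was 9, 1 and 10 without WT 1, 2 and 3, and 12, 11 and 18 without KO 1, 2 and 3. Pcna, the sliding clamp of replication, had 137, 128 and 116 TPM in WT 1, 2 and 3 and 188, 171 and 146 in KO 1, 2 and 3. Its groups did not overlap, and its log2 fold change was 0.45 (SE 0.14, adjusted p = 0.0663, edgeR). Of 12 G1 cyclins and kinases, 0 rose with edgeR (3 at an unadjusted p under 0.05, and 1 with DESeq2). With edgeR 1 fell, Ccnd1, cyclin D1, at -0.56 (SE 0.12, adjusted p = 0.0267, edgeR). In the lower direction 3 had an unadjusted p under 0.05, and 2 passed with DESeq2. The falling genes numbered 0, 0 and 1 without WT 1, 2 and 3, and 2, 1 and 0 without KO 1, 2 and 3.

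The brakes on the cycle gave a mixed picture. Of 18 tested, 4 rose and 1 fell. The rising genes numbered 5, 1 and 3 without WT 1, 2 and 3, and 2, 3 and 3 without KO 1, 2 and 3, and a gene fell in 1 of these 6 fits, that without KO 1. Btg2, an antiproliferative factor, rose by 1.59 (SE 0.11, adjusted p = 0.00263, edgeR), and Sfn, which encodes 14-3-3 sigma and retains cyclin B complexes in the cytoplasm, rose by 0.77 (SE 0.12, adjusted p = 0.0133, edgeR). Cdkn3, a phosphatase of Cdk proteins whose own mRNA peaks in mitosis, rose by 0.97, and Ccng2, cyclin G2, by 0.65. Ccng1, cyclin G1, fell by 0.26 on the log2 scale (adjusted p = 0.0324 from edgeR's test). The Cdk inhibitors Cdkn1a (p21), Cdkn1b (p27) and Cdkn2a (p16 and p19Arf) had log2 fold changes of 0.31, -0.40 and -0.98 with adjusted p = 0.120, 0.0707 and 0.130 from edgeR's test. Wee1 and Pkmyt1, the kinases that add the inhibitory phosphates to Cdk1, had log2 fold changes of 0.11 and 0.30, and Fzr1, which keeps the anaphase-promoting complex active in G1, one of 0.11. Their adjusted p-values were 0.580, 0.0896 and 0.461 (edgeR).

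**Figure D5:**
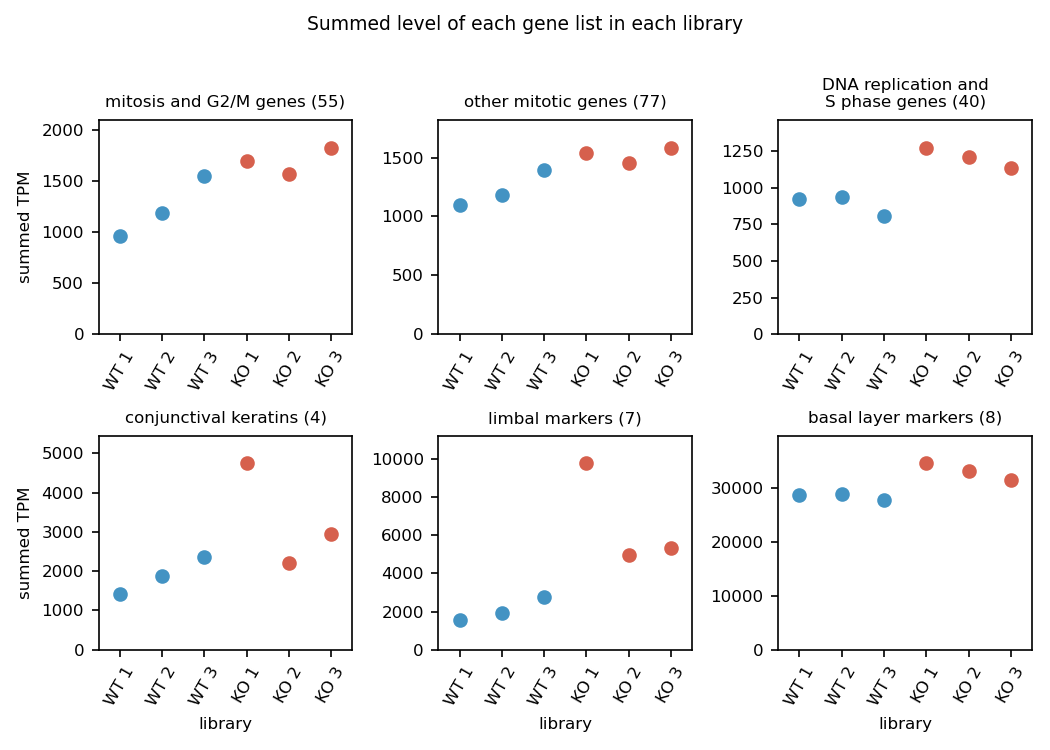
Summed TPM of 6 gene lists in each library (WT in blue, KO in red; the number of genes is in each title). The mitotic sum runs from 957 in WT 1 to 1553 in WT 3 and from 1565 in KO 2 to 1826 in KO 3, and the sums of the conjunctival keratins and limbal markers also have WT 1 as the lowest and WT 3 as the highest of the WT libraries.

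The summed limbal, conjunctival and basal layer markers had higher means in KO, as the mitotic genes did, but not every marker rose. The 7 limbal markers summed to 1578, 1923 and 2778 TPM in WT 1, 2 and 3 and to 9767, 4946 and 5318 TPM in KO 1, 2 and 3, and 3 of the 7 rose (Krt14, Mmp10 and Krt17). That count was 2, 0 and 2 without WT 1, 2 and 3, and 3, 4 and 3 without KO 1, 2 and 3. Krt15, Ifitm3, Gpha2 and Cd63 did not pass (adjusted p = 0.126, 0.326, 0.392 and 0.847 from edgeR's test). The 4 conjunctival keratins, Krt4, Krt13, Krt19 and Krt7, summed to 1408, 1871 and 2351 TPM in WT and to 4745, 2202 and 2937 TPM in KO. None of these 4 passed with edgeR, 3 had an unadjusted p under 0.05 and 1 passed with DESeq2. Both sums were lowest in WT 1 and highest in WT 3 among the controls, as the mitotic sum was, and their part in the mitotic result was not tested. The 8 basal layer markers summed to 27809 to 28845 TPM in WT and 31362 to 34499 TPM in KO, and Itga6, Krt14, Itgb4 and Itgb1 rose, a count of 4 that was 2, 1 and 2 without WT 1, 2 and 3 and 3 without any single KO library. In the basal list Trp63, Krt5 and Col17a1 had log2 fold changes of -0.03, 0.04 and 0.05. Krt14 and Krt15 stand in both the limbal and the basal list. They made up most of the limbal sum and most of the difference between the basal means, 28458 TPM in WT and 33019 TPM in KO. Mean TPM in WT and KO was 571 and 3824 for Krt14 and 1157 and 2206 for Krt15. By immunofluorescence 3 months after tamoxifen, the study saw its K14 increase mainly in the central cornea, and the limbus was not significantly altered. In the same staining, PCNA-positive cells were slightly fewer in the mutant. After scrape injury, the study found no difference in PCNA-positive or Ki67-positive cells. Those are counts of cells stained for protein, at another time or after injury, and were not compared with the RNA here. Of 10 corneal epithelial genes, 1 rose, Clu, and 0 fell with edgeR (1 was lower at an unadjusted p under 0.05, Pax6). Their log2 fold changes were above 0 for 5 genes and below 0 for 5. These 10 genes summed to 112950, 115850 and 107420 TPM in WT 1, 2 and 3 and to 90952, 115530 and 102760 TPM in KO 1, 2 and 3. The keratocyte gene Kera was at 0 in the KO libraries and reached 0.07 TPM in WT, and the 10 stromal genes summed to 8.38 to 35.4 TPM in WT and 7.30 to 10.0 TPM in KO. The 10 immune genes summed to 129, 143 and 170 TPM in WT 1, 2 and 3 and to 211, 155 and 175 TPM in KO 1, 2 and 3, again with WT 1 lowest and WT 3 highest of the controls, and their part in the mitotic result was not tested. The integrin gene Itgam made up most of the sum, with 67.0, 86.0 and 101 TPM in WT and 129, 99.5 and 113 TPM in KO and a log2 fold change of 0.48 (SE 0.15, adjusted p = 0.0759, edgeR), and Cd68 stood at 45.3 to 65.5 TPM. The leukocyte gene Ptprc was at most 0.20 TPM. Of the 10 genes 4 were expressed enough to test, of which 0 passed with edgeR (1 at an unadjusted p under 0.05, Itgam) and 1 with DESeq2. Among these 4, 2 had a log2 fold change above 0, Itgam and Cd68, and 2 below. The lower ones were Cd74 at -0.45 and H2-Ab1 at -0.40 (adjusted p = 0.464 and 0.566 from edgeR's test). Pecam1 and Cdh5, of vessels, were at most 0.32 TPM.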

How the data were processed

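The members of the gene list and all other lists were chosen with earlier results of these data known. The authors sequenced RNA of EDTA-separated corneal epithelium. According to the study, ribosomal RNA was depleted and DNA nanoballs were sequenced, whereas an Illumina kit is named in the labels. The submitters' processing notes name Bowtie2 2.2.5, RSEM 1.2.12 and the build mm9. The authors deposited expected counts per gene, RSEM estimates that divide reads among matching transcripts and are not scaled for depth. They also deposited TPM values, which RSEM scales for gene length and depth within each sample. FPKM values and group averages in the same table were not used, and 0 columns belonged to other samples.

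Samples were grouped as WT and KO by their titles. Expected counts were rounded, since 39.4% of values above 0 were not whole, and 22 of the 55 genes had such a value. Genes passing filterByExpr were tested in R 4.3.3 with edgeR 4.0.16 (two-sided quasi-likelihood test with TMM factors, which lay between 0.960 and 1.03), with Benjamini-Hochberg adjustment over 12999 genes. Normalized counts are CPM on the scaled library sizes, multiplied by their mean. Standard errors (SE) were obtained by dividing the size of a log2 fold change by the square root of its F statistic. Libraries of a group differed by more than sampling noise (chi-square over its degrees of freedom, 10.1 to 37.8). With 3 counts as a floor, a library's limit was 0.145 to 0.148 CPM, which covers counting error only.

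On simulated data with 12882 genes, edgeR recovered 56.7% of the genes given a log2 change of 0.75 in either direction and 90.9% of those given 1.5, and 4.61% of calls were false. Genes were simulated independently and with the same dispersion in both groups. The 55 genes instead moved together by library and spread more in WT than in KO, so these rates may not hold for them. Values in every sample were given for the most abundant gene of each of 12 role groups, the 10 smallest p-values, Mki67, Top2a, Cdk1, Ccnb1, Foxm1 and Mybl2, and for Pttg1, which was added after its values were seen. Outside the list, at most 8 passed genes per list were named in order of p, besides Cdkn1a, Cdkn1b, Cdkn2a, Wee1, Pkmyt1, Fzr1, Pcna and Ptch1, and marker genes that define a cell type. Promoters were those of genes that passed and held both motifs before the gene start, at most 6 in order of p. After the data were seen they were limited to bases outside the gene's RefSeq extent, which left out Ncapd2 and Ncapg. Abcb5, Lum, Muc5ac and the promoters of 10 genes were not used here. The alternatives were DESeq2 1.42.0, RLE and upper-quartile factors, other filters, limma 3.58.1 on log2(TPM + 1) or log2(TPM + 0.1), a replicate block, and each library left out.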

Additional observations from a re-analysis of the deposited data

How the results depend on the processing

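The log2 fold changes of the 55 genes kept a positive direction in all alternatives except for Kif23 (-0.087 without WT 1, and up to 0.24 without WT 3) and Pttg1 (-0.15 without WT 1 and -0.018 without KO 3, and up to 0.29 without WT 3). Their median stayed between 0.52 and 0.59 with other tools, factors, filters and units, and between 0.38 and 0.80 when 1 library was left out. The number that passed was 17 with RLE factors, upper-quartile factors or a minimum of 10 counts and 16 without the count filter, but 35 with DESeq2, which included all 17 and passed 19.4% of all genes against 14%. It was 11 with limma on log2(TPM + 1), 10 on log2(TPM + 0.1) and 2 on log2(TPM + 1) without a TPM filter, and 0 to 38 with 1 library left out. For the 77 other mitotic genes, where edgeR passed 19, these numbers were 35, 11, 10, 4 and 0 to 27. The genes with an added 2-fold change were 0 in all fits of the 6 libraries and 0 to 7 with 1 library left out. Over all genes, 1822 passed, 798 by limma without the TPM filter and 93 to 1325 with 1 library left out. With a 2-fold change there were 420, which became 234 by limma on log2(TPM + 1), 168 without its filter and 59 to 430 with 1 library left out. The share of higher genes among all that passed was 54.3%, 47.6% to 58.0% in the alternatives with 6 libraries and up to 73.1% without WT 2. The main fit assumed no pairing by replicate number. Deviations of same-numbered libraries correlated at 0.105, -0.014 and 0.019, but 3 libraries a group are too few to exclude a pairing. The replicate block gave 20 genes of the list and 1892 of all, and not every library correlated best with its own number. Leaving 1 group with 2 libraries assumes that they vary like the other group. The causes of these differences were not tested. At this depth the lowest count behind a gene of the list was 43, and 3 libraries a group limit the precision.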
